A study of Mus musculus with 6 samples.

Results

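Voltage-gated potassium channels were examined in primary neurons of mouse brain, that is, nerve cells isolated from tissue and kept in a dish, infected with one of a pair of adeno-associated viruses (AAV). The members are the protein-coding genes of the deposited table whose GENCODE M21 symbol begins with Kcna, Kcnb, Kcnc, Kcnd, Kcne, Kcnf, Kcng, Kcnh, Kcnip, Kcnq, Kcns or Kcnv. The rule found 52 genes among 55416 in the table, 40 for pore-forming subunits and 12 for auxiliary subunits (Kcnab, Kcne and Kcnip), spread over 17 chromosomes. All 6 RNA sequencing libraries came from wild-type mouse neurons. In 3 libraries, called miR-9-3p, the virus carried miR-9-3p, by the protocol behind hsyn, a promoter of the synapsin gene used to restrict expression to neurons. In the other 3, called control, it was a control vector, named scramble in the titles and treatment labels and AAV-hsyn-mCherry in the extraction protocol. The labels do not give the age, sex, strain, brain region or days after infection, nor whether replicates were separate cultures. The p-values therefore rest on the spread among these replicates alone, and that spread may be technical.

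These channels open when the membrane depolarises and let potassium leave the cell, which ends the action potential and sets how fast a neuron can fire again. Kv1, Kv2, Kv3 and Kv4 (Kcna, Kcnb, Kcnc, Kcnd) are the classical families. Kv7 (Kcnq) carries the M current, which holds back repetitive firing, and Kcnh holds the EAG, ERG and ELK families. Kcnf, Kcng, Kcns and Kcnv encode silent subunits, which form no channel alone but assemble with Kv2 subunits. Kcnab, Kcnip and Kcne encode auxiliary subunits that change gating or traffic of the pore.

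A microRNA silences messenger RNAs chiefly through matches to its seed in 3′ UTRs. The mature miR-9-3p is shown because the 3′ UTRs of the channel genes were searched for its seed. It is the same at Mir9-1, Mir9-2 and Mir9-3 (chromosomes 3, 13 and 7, RefSeq on GRCm38.p6), with the seed, bases 2 to 8, in capitals.
mmu-miR-9-3p: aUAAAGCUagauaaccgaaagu

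Matches stood in the longest annotated 3′ UTR of 12 of 38 tested members, as 1 to 5 matches a gene. Kcnh7, an ERG channel gene, had 5 in a 3′ UTR of 9532 bases, Kcnq5 had 3, and Kcna6 and Kcnc2 had 2. The sites below are those of Kcnc2, called higher in the comparison that follows, and the 8-base matches, which pair with the whole seed and end in A. Capitals mark the match, and positions are GRCm38. Kcnc2 (chr10:112463419-112463448 and chr10:112466498-112466527, plus strand) has matches to bases 2 to 7 followed by A, and the 8-base sites are in Kcnab1 (chr3:65377240-65377269, plus strand), Kcnd3 (chr3:105673335-105673364, plus strand), Kcnh7 (chr2:62700206-62700235 and chr2:62698337-62698366, minus strand) and Kcnq5 (chr1:21400501-21400530, minus strand).
Kcnc2 first site: atcttatcctgGCTTTAAagatgatctaaa
Kcnc2 second site: agaatacttgtGCTTTAAtttcattaacag
Kcnab1 site: gttatggaaacAGCTTTAAataaaatgtta
Kcnd3 site: attacttgcaaAGCTTTAAaatgatgggaa
Kcnh7 first site: accctacaaatAGCTTTAAatgccattacc
Kcnh7 second site: attggcactatAGCTTTAAagtaataatat
Kcnq5 site: taaattatataAGCTTTAActaaaagattc

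The table gives FPKM, fragments scaled to the length of the gene and the size of the library, so levels of different genes can be compared. Counting reads back from the smallest values gave a depth of 16001205 to 17936453 reads per library, and the called members rested on 104 to 2565 reads in a library. All 12 neuron markers, such as Tubb3, Snap25 and Syt1, were tested, and their summed level was 864 to 1327 FPKM in control and 1219 to 1476 FPKM in miR-9-3p. Of these 1, Map2, was called higher and 0 lower. The 8 astrocyte markers summed to 387 to 458 and 272 to 306 FPKM (0 higher, 1 lower). The 8 lung alveolar type 2 markers summed to 1282 to 6676 FPKM in control and 599.7 to 1987 FPKM in miR-9-3p, with 0 called. The lung level, the median of these genes after each is set against its own mean, was, relative to its lowest library, 2.25, 3.21 and 10.8 times in the controls (1, 2, 3 in order) and 3.20, 1.17 and 1 times with miR-9-3p. By the airway gene Bpifa1 relative to Scgb1a1 the libraries fell into sets, one of control 2 and 3 and miR-9-3p 1, the other of control 1 and miR-9-3p 2 and 3. The 8 endothelial, mural and fibroblast markers summed to 52.3 to 208 and 17.9 to 56.9 FPKM (0 called), the 6 progenitor markers to 910.4 to 1072 and 639 to 649 FPKM (1 lower), the 8 of the oligodendrocyte lineage to 295 to 471 and 193 to 295 FPKM (1 higher, 1 lower), and the 8 of microglia and macrophages to 6.87 to 18.5 and 4.06 to 7.31 FPKM (2 tested, 0 called). The airway and blood markers had 0 calls too, and no marker was at 0 in every library. The part of these cell types and of lung RNA in the channel results was not tested, except where values with the lung level or within the library sets are given. In such bulk samples, fewer cells of a type and less RNA per cell cannot be told apart.

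The comparison of the vectors asks which channel genes differ in neurons given miR-9-3p. The genes of the pore subunits Kcnq3, Kcna3 and Kcnc2 and of the silent subunit Kcnv1 were among those called higher in miR-9-3p. They rose by 0.42 to 1.08 on the log2 scale, and no member was called lower. At least 1 FPKM in at least 3 libraries was reached by 38 of the 52 members, and 0 of these reached it through 1 group alone. Of the 38, 5 were higher in limma with Benjamini-Hochberg adjustment (p under 0.05), or 13.2%, beside 3.89% of all 14229 genes tested, and 0 were lower, beside 2.4% (6.29% of all genes were called in either direction). At an unadjusted p under 0.05, 14 members were higher and 1 was lower, where 14.0% and 12.8% of all genes were, and voom on the reads called 6 higher and 0 lower, beside 3.72% and 2.98% of all 14095 genes in that fit. Of the 30 tested pore-forming genes 5 were called and of the 8 tested auxiliary genes 0, with 1 at an unadjusted p under 0.05. All fold changes are differences of log2(FPKM + 1), a scale that shrinks the change of low genes. The median over the 38 was 0.22 and the median over all genes tested was -0.02. In 15 members all miR-9-3p libraries lay above all control libraries, where 18.2% of all genes tested did so, and in 1 member all lay below (16.7% of all genes).

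The calls depended on single libraries. Without control library 3 limma called 3 members, with Kcnq3 and Kcnv1 among them, and without any other single library limma called 0 members and 0 genes in all, with 11 to 18 members and 2739 to 3654 genes in all at an unadjusted p under 0.05. The tested members had a median exon length of 5220 bases and all tested genes 4127 bases. Log2 fold changes rose with exon length across all genes (Spearman rho 0.27 over 14095 genes with a length, which are not independent), and 3 members, Kcna3, Kcnq3 and Kcnv1, were called after that trend was taken out of each library.

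**Figure D1:**
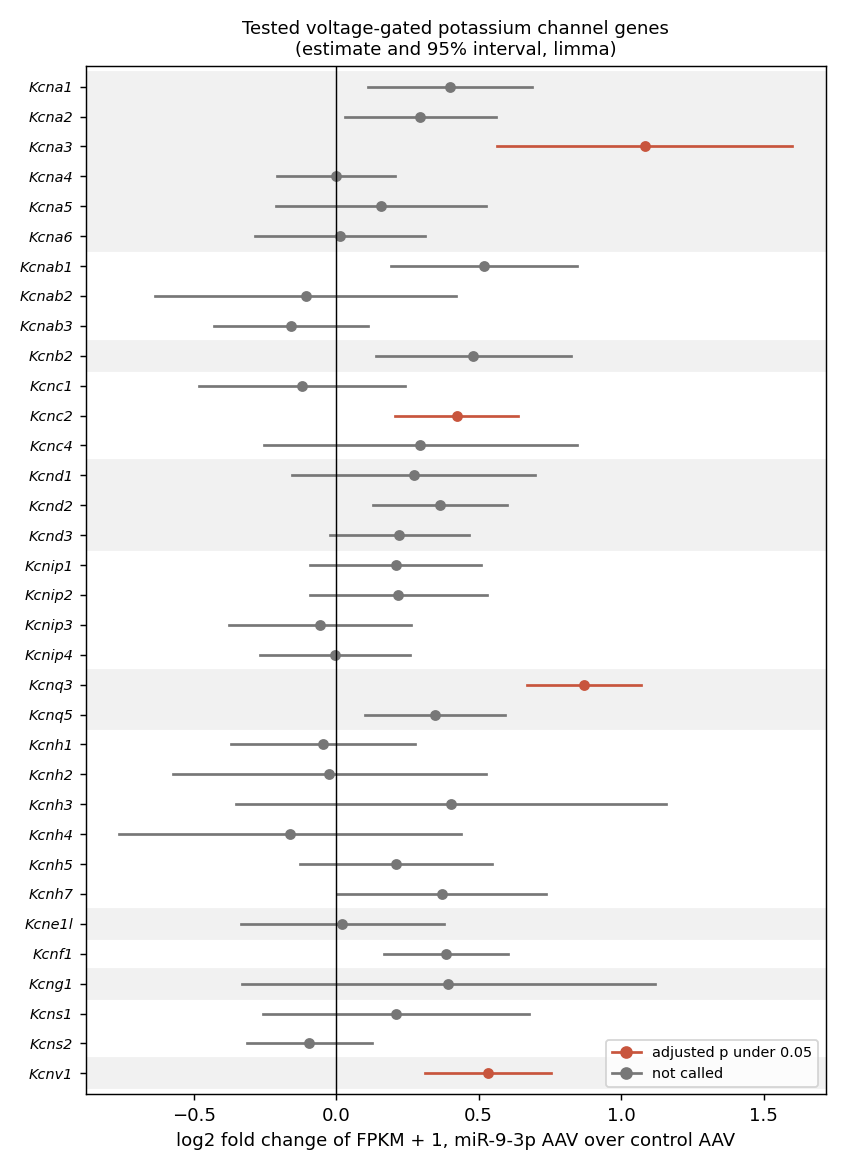
Log2 fold change of FPKM + 1 in miR-9-3p over control for 34 tested members, grouped by family in shaded bands. Points are limma estimates from 3 libraries a group, lines are 95% intervals, and the 4 called genes in red lie between 0.42 and 1.08.

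Of the 4 tested Kv7 genes 1, Kcnq3, rose. Kcnq3 (ENSMUSG00000056258, chromosome 15, 65986387 to 66286642, minus strand), which encodes a subunit of the neuronal M channel, stood at 4.70, 4.72 and 4.61 FPKM in the controls (libraries 1, 2 and 3 in order, here and throughout) and 10.2, 8.77 and 9.24 with miR-9-3p. Every miR-9-3p library was well above the control libraries, which hardly differed among themselves. Kcnq3 rose from 4.68 ± 0.0582 to 9.39 ± 0.704 FPKM (SD, n = 3 per group), by 0.87 on the log2 scale (standard error, SE, 0.08; limma adjusted p = 0.0170), and was the member with the lowest p.

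Kcnq5, which also adds to M currents, had 7.65, 8.46 and 6.79 FPKM in control and 10.4, 10.3 and 9.24 with miR-9-3p, a log2 fold change of 0.35 (limma adjusted p = 0.0945). Its groups did not overlap, but it did not pass.

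Among the silent subunits that join Kv2 channels, Kcnv1 rose. Kcnv1 (ENSMUSG00000022342, chromosome 15, 45106284 to 45114920, minus strand), a silent subunit of the Kv8 family, went from 5.59, 5.29 and 4.61 FPKM in controls to 8.14, 8.02 and 7.53 with miR-9-3p. It rose by 0.53 (SE 0.09, limma adjusted p = 0.0319). Every miR-9-3p library was above every control library.

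Kcnb2, a Kv2 gene, was low, at 1.09, 1.26 and 1.23 FPKM in control and 2.64, 1.84 and 1.77 with miR-9-3p. Its libraries did not overlap, with a log2 fold change of 0.48 and a limma adjusted p of 0.0951. Kcnf1, the single Kv5 gene and the most abundant silent subunit, stood at 11.5, 11.6 and 10.2 FPKM in controls and 13.9, 14.7 and 15.7 with miR-9-3p (log2 fold change 0.39, SE 0.09, limma adjusted p = 0.0587). Its groups were separate too, and it passed in 6 of 18 alternatives, such as a filter of 5 FPKM. Kcng1, of the Kv6 family, varied widely within control, at 7.39, 4.19 and 2.71 FPKM, and overlapped miR-9-3p, at 4.91, 7.14 and 6.63 FPKM (log2 fold change 0.39, 95% interval -0.33 to 1.12). The Kv9 genes Kcns1 and Kcns2 had log2 fold changes of 0.21 (95% interval -0.26 to 0.68) and -0.09 (95% interval -0.31 to 0.13). Of the 10 silent subunit genes 5 were tested and 1, Kcnv1, was called.

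**Figure D2:**
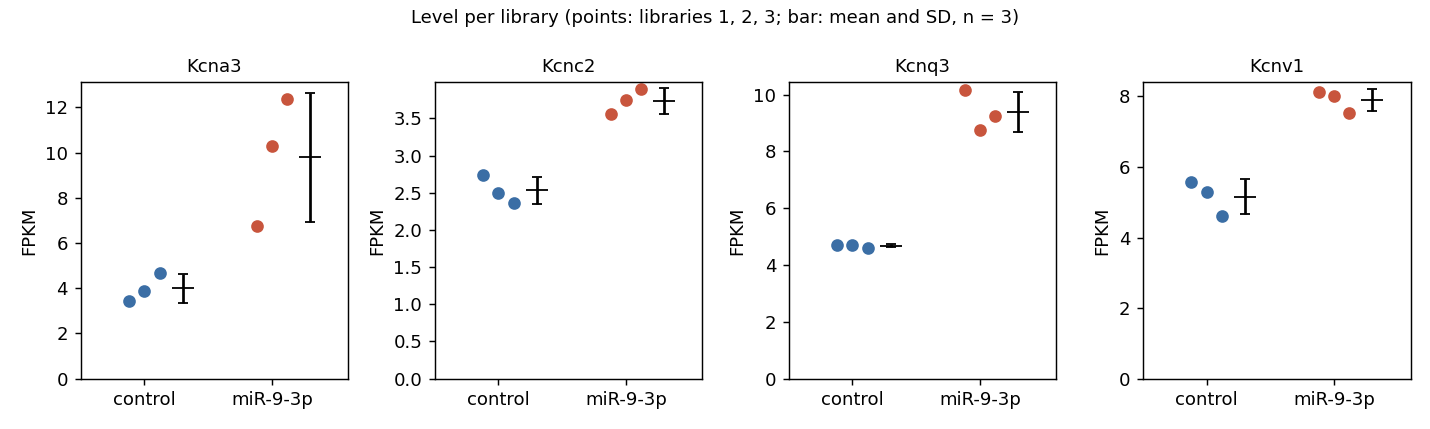
FPKM of 4 called members in each library (points, libraries 1, 2 and 3 from left to right in each group), with the mean and SD of 3 libraries (bars). In each gene the lowest miR-9-3p library lies above the highest control library, for example in Kcnc2 at 3.56 against 2.73 FPKM.

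Of the 4 Kv3 genes, whose fast channels allow high firing rates, 1, Kcnc2, rose. Kcnc2 (ENSMUSG00000035681, chromosome 10, 112271121 to 112467024, plus strand) rose from 2.73, 2.50 and 2.37 FPKM in controls to 3.56, 3.75 and 3.90 with miR-9-3p. Both groups were tight and apart, a rise of 0.42 on the log2 scale (SE 0.09, limma adjusted p = 0.0473), the highest adjusted p of the called members. Kcnc2 passed in 6 of 17 alternatives, with adjusted p from 0.0320 to 0.275 in limma, and did not pass with quantile normalization (0.0592) or without the library of highest lung level in each group (0.0534). Kcnc1, a far more abundant Kv3 gene, had 16.5, 15.8 and 12.4 FPKM in controls and 11.3, 14.9 and 14.7 with miR-9-3p, with overlapping groups and a log2 fold change of -0.12 (95% interval -0.48 to 0.24). Kcnc4 had a log2 fold change of 0.30 (95% interval -0.25 to 0.84). Kcnc2 stood at 15.8% to 19.1% of the Kcnc1 level in control libraries and 25.2% to 31.5% in miR-9-3p libraries, a ratio chosen after seeing the values. Kcnc2 is known from fast-spiking interneurons. Of the 4 tested interneuron markers 0 were called in either direction (median log2 fold change -0.02). Gad1, Gad2, Lhx6 and Sst had log2 fold changes of -0.08, 0.04, 0.28 and -0.11. Pvalb and Vip of the list were not tested. Pvalb, the marker of fast-spiking cells, was under 1 FPKM in every library. Vip stood at 0.955, 1.41 and 0.563 FPKM in control and 0.240, 0.139 and 0.121 with miR-9-3p, lower without overlap. The part of interneurons in the Kcnc2 values was not tested.

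Within Kv1, Kcna3 had the largest fold change of any tested member. Kcna3 (ENSMUSG00000047959, chromosome 3, 107036169 to 107038070, plus strand), a channel known from lymphocytes as well as from brain, stood at 3.42, 3.90 and 4.68 FPKM in control and 6.73, 10.3 and 12.4 with miR-9-3p, on 104 to 399 reads. The miR-9-3p libraries were all above the controls but spread over a wide range, with library 1 the lowest. Of the 8 microglia and macrophage markers 4, with the leukocyte marker Ptprc among them, were under 1 FPKM in every library. Cd68 stood at 1.78 to 4.53 FPKM and C1qa at 0.567 to 6.94 FPKM. The cell source of the Kcna3 reads was not tested. The rise from 3.999 ± 0.638 to 9.80 ± 2.85 FPKM (SD, n = 3) came to 1.08 on the log2 scale (SE 0.21, limma adjusted p = 0.0418). Over the fits without 1 library the rise was 0.91 to 1.31. Kcna3 passed in none of those fits, with limma adjusted p from 0.0524 to 0.153. Kcna1 and Kcna2, which shape spikes along axons, had log2 fold changes of 0.40 (limma adjusted p = 0.0981) and 0.29 (limma adjusted p = 0.152). Kcna2 had 6.04, 6.88 and 7.12 FPKM in control and 9.52, 8.24 and 7.55 with miR-9-3p, so the groups were separate by a small margin.

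Kcna6, the most abundant Kv1 gene, had a log2 fold change of 0.01 (95% interval -0.29 to 0.31), on 905 to 1173 reads. It shares 39.6% of its exon bases with the antisense gene Gm26673, and with no strand setting given in the sources used here, reads of the pair cannot be told apart. Kcna4, which inactivates quickly, had 4.69, 4.89 and 4.44 FPKM in controls and 4.42, 5.04 and 4.57 with miR-9-3p, a log2 fold change of -0.00011 with a 95% interval of -0.21 to 0.21. The summed level of the 8 Kcna genes was 30.3, 31.8 and 29.5 FPKM in control and 37.2, 40.3 and 41.5 FPKM in miR-9-3p.

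Kcnab genes encode cytoplasmic subunits of Kv1 channels. Kcnab1, which speeds inactivation, stood at 1.10, 0.888 and 0.762 FPKM in control and 2.02, 1.48 and 1.75 with miR-9-3p, with separate groups (log2 fold change 0.52, limma adjusted p = 0.0731). It passed with voom on recovered reads (adjusted p = 0.0430), where its reads were rounded because its exon length in the annotation did not give whole numbers. Kcnab2, the most abundant of the 3, had 12.4, 9.86 and 6.94 FPKM in controls and 7.002, 9.60 and 9.92 with miR-9-3p, with control library 1 the highest and a log2 fold change of -0.11 (95% interval -0.63 to 0.42). Kcnab3 had a log2 fold change of -0.16 (95% interval -0.43 to 0.11).

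The Kv4 channels carry the A-type current of dendrites, and 0 of 3 passed (1 at an unadjusted p under 0.05). Kcnd2 stood at 13.2, 16.3 and 15.2 FPKM in control and 20.1, 19.1 and 19.1 with miR-9-3p, and Kcnd3 at 10.5, 12.3 and 12.8 FPKM in controls and 14.9, 13.9 and 13.2 with miR-9-3p. In both genes every miR-9-3p library was above the controls, with log2 fold changes of 0.36 (SE 0.10, limma adjusted p = 0.0777) and 0.22 (SE 0.10, limma adjusted p = 0.217). Kcnd1 was low, with a log2 fold change of 0.27 (95% interval -0.16 to 0.70). The Kcnip genes encode calcium-binding KChIP subunits of Kv4, and 0 of 4 passed (0 at an unadjusted p under 0.05). Kcnip3, also known as the transcriptional repressor DREAM, had 12.8, 10.97 and 9.28 FPKM in controls and 9.59, 10.3 and 11.6 with miR-9-3p, a log2 fold change of -0.06 with a 95% interval of -0.38 to 0.26. The values were 0.21 for Kcnip1, 0.22 for Kcnip2 (95% interval -0.09 to 0.53) and -0.0034 for Kcnip4. The Kcnd sum was 26.5, 30.6 and 29.7 FPKM in control and 37.2, 36.02 and 35.4 FPKM in miR-9-3p, whereas the Kcnip sums overlapped, at 28.5, 24.9 and 20.8 FPKM and at 25.1, 26.02 and 27.2 FPKM.

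**Figure D3:**
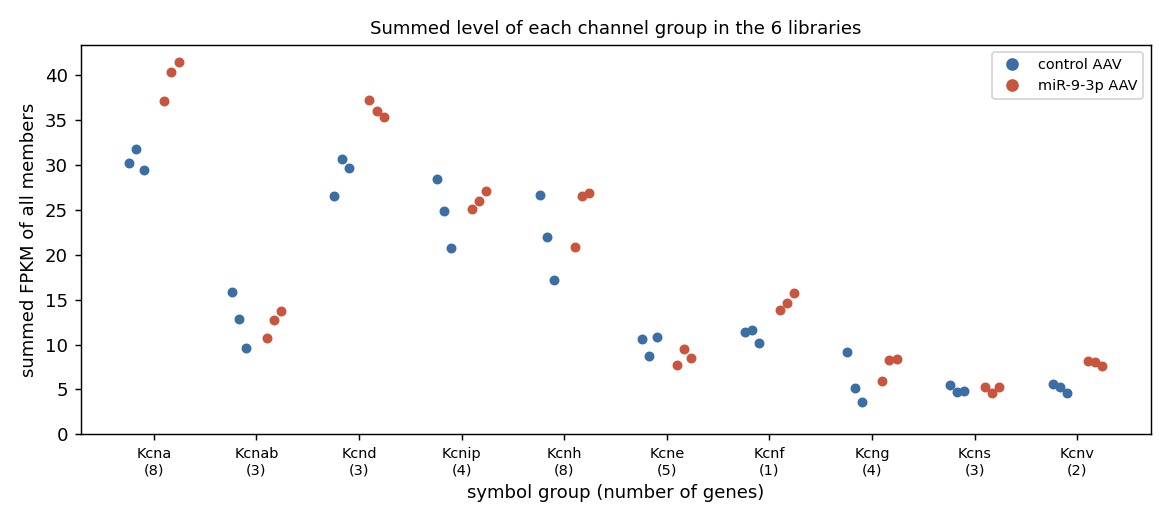
Summed FPKM of all members with the same symbol root in each of the 6 libraries, with the number of genes in brackets for 10 symbol groups. In the Kcna, Kcnd, Kcnf and Kcnv groups each miR-9-3p library lies above each control library, and in the other groups drawn the libraries overlap.

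The EAG, ERG and ELK genes had 0 calls among 6 tested (1 at an unadjusted p under 0.05). Kcnh2, the ERG channel known from cardiac repolarisation, had 8.87, 7.26 and 5.29 FPKM in control and 4.999, 7.71 and 8.35 with miR-9-3p, a log2 fold change of -0.02 with a 95% interval of -0.57 to 0.52. Kcnh3, an ELK channel of forebrain neurons, had 7.25, 4.71 and 2.69 FPKM in controls and 4.68, 7.62 and 7.22 with miR-9-3p (log2 fold change 0.40, 95% interval -0.35 to 1.16), so that its control libraries spanned most of the range. In both genes the lowest of each group were control library 3 and library 1 of miR-9-3p, those with the highest lung level of their groups. Lower values at a higher lung level within groups were not particular to these genes. The slope was negative in 28 of the 38 tested members (73.7%), beside 52.3% of all tested genes. The part of lung RNA in this was not tested. Kcnh7, with the most seed matches, had 2.52, 3.43 and 3.53 FPKM in controls and 5.31, 3.91 and 3.92 with miR-9-3p, with separate groups, a log2 fold change of 0.37 and a limma adjusted p of 0.184. The remaining tested genes were Kcnh1, Kcnh4 and Kcnh5, with log2 fold changes of -0.04, -0.16 and 0.21.

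Among the Kcne genes, small single-span subunits, 1 of 5 was tested. Kcne1l had 9.15, 7.41 and 6.43 FPKM in controls and 6.75, 8.87 and 7.68 with miR-9-3p, a log2 fold change of 0.02 with a 95% interval of -0.33 to 0.38. Kcne2 stood at 1.24, 0.947 and 3.13 FPKM in control and 0.692, 0.401 and 0.734 with miR-9-3p. Every control library of Kcne2 lay above every miR-9-3p library, and control library 3 was the highest. Control library 3 alone was high in Kcne3 at 0.0351, 0.0313 and 0.348 FPKM and in Kcne4 at 0.188, 0.294 and 0.912 FPKM. The same held in Kcnq1, the cardiac and epithelial partner of Kcne subunits, at 0.443, 0.341 and 1.64 FPKM. That library also had the highest lung level, and the part of lung RNA in these values was not tested. Of the 14 untested members 5 had their highest value in it.

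Among the other untested members, Kcng2 had 1.53, 0.727 and 0.528 FPKM in controls and 0.584, 0.710 and 1.22 with miR-9-3p. Kcng3, a silent subunit, had 5, 9 and 3 reads in control and 24, 19 and 29 reads in miR-9-3p, without overlap. Kcnv2, a silent subunit known from retina, had 0 reads in each control library and 8, 3 and 4 reads in miR-9-3p. These genes were under the filter, so they have no test, and counts this small carry large counting error. Kcna10, Kcna7 and Kcne1 had at most 5 reads in any library, while Kcng4, Kcnh6, Kcnh8 and Kcns3 reached at most 1.01 FPKM.

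Proteins that bind, anchor, cluster or regulate these channels were taken as a list of 26 genes, written with earlier results of these data known. All 26 were tested, 6 were higher and 0 lower, beside the 3.89% and 2.4% of all genes, and the list median was 0.24. Dpp10, an auxiliary subunit of Kv4, rose from 3.38 ± 0.0867 to 5.30 ± 0.445 FPKM (SD, n = 3), by 0.52 on the log2 scale (limma adjusted p = 0.0307), while its paralogue Dpp6 had a log2 fold change of 0.13 (95% interval -0.25 to 0.50). Ank3, the ankyrin that holds M channels at the axon initial segment, rose from 9.47 ± 0.482 to 15.5 ± 0.469 FPKM (log2 fold change 0.65, limma adjusted p = 0.0204). Dlg2, a scaffold that clusters Kv1 channels, rose by 0.56 on the log2 scale (limma adjusted p = 0.0299). Adam22 and Adam23, receptors of the secreted protein LGI1, rose by 0.46 and 0.49 (limma adjusted p = 0.0458 and 0.0299), and the transcription factor gene Mef2c by 0.63 (limma adjusted p = 0.0223). Vapa and Amigo1, partners of Kv2, had log2 fold changes of -0.26 (95% interval -0.55 to 0.03) and 0.03 (95% interval -0.27 to 0.34). These partners have long exons (median 9776 bases), and with the length trend removed 0 were called in limma, where their median was 0.17.

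The called members were also set out within the library sets defined by Bpifa1. Their groups do not overlap, which fixes the direction in any subset, so only the sizes are given. The log2 differences, first in the set with Bpifa1 and then in the set nearly without, were 0.98 and 0.81 for Kcnq3 and 0.62 and 0.41 for Kcnv1. They were 0.41 and 0.37 for Kcnc2 and 0.55 and 1.48 for Kcna3, whose difference was smaller in the first set. Over the 38 members 23 (60.5%) had positive differences in both sets and 10 (26.3%) negative differences in both, where 35.3% and 44.9% of all tested genes did, and each set holds 1 library of one group. With the lung level as a covariate 12 members were higher, beside 12.7% of all genes tested, and 5 were lower, beside 16.6%. The 12 included the 5 called without it, at log2 fold changes of 0.99 for Kcna3 and 0.91 for Kcnq3. The others were Kcna1, Kcna2, Kcnb2, Kcnd2, Kcnd3, Kcnf1 and Kcnh7. Kcnab2 (at -0.54, limma adjusted p = 0.0102), Kcnh2 (-0.48) and Kcnc1 (-0.40) were among the lower genes. The median of the 38 was then -0.01, beside -0.05 over all genes. Without the covariate these medians were 0.22 and -0.02.

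**Figure D4:**
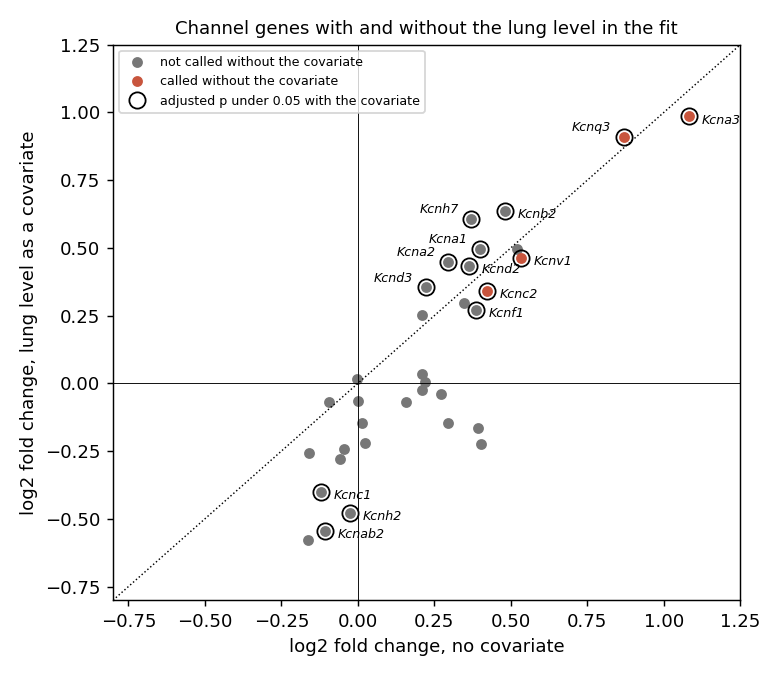
Log2 fold change of 34 tested members without (horizontal) and with (vertical) the lung level as a covariate in limma. Filled red points are the 4 genes called without it, rings mark 11 higher and 3 lower genes called with it, and the dotted line marks equal values.

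The seed matches shown above were set against these fold changes. Of the 38 tested members 31.6% had a match, beside 20.5% of the 12187 tested genes with a 3′ UTR of at least 30 bases, and the members had the longer 3′ UTRs (median 2053 against 1254 bases). The 12 members with a match had a median log2 fold change of 0.37 and the 26 without had 0.21. Over all tested genes the medians were 0.07 with a match and -0.06 without. Genes with a match had longer 3′ UTRs, with a median of 2602.5 bases over all tested genes and 3628 bases among the members. The part of length in these fold changes was not tested. Of the members with a match 1, Kcnc2, was higher and 0 were lower, and 4 without a match were higher. Kcnq3, Kcna3 and Kcnv1 had 0 matches in the 3′ UTR examined. The 4 members with an 8-base match, Kcnab1, Kcnd3, Kcnh7 and Kcnq5, had a median of 0.36. A match is a string of letters and does not show binding, and shorter 3′ UTR forms were not examined.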

How the data were processed

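The authors deposited 1 table of FPKM values for mouse genes, with 1 column per library, per the file headers. The submitters' processing notes name mm10, Cufflinks 2.2.1 and HISAT2, without saying what each did. Annotation, strandedness and any filter are not given in the sources used here. Since FPKM is relative to the library total, abundant lung transcripts take up part of that total. How far this lowered the other values in a library was not tested.

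GENCODE M21 on GRCm38 (mm10) supplied exon lengths, coordinates and symbols, and matched 52083 of 55416 identifiers. Dividing low FPKM values by their step gave whole reads, within 0.01, for at least 98.05% of the values above 0 in a library, and for 47 of the 52 channel genes in every library. log2(FPKM + 1) was fitted with limma 3.58.1 in R 4.3.3 (empirical Bayes, trend on mean level, vector as the only term) on every gene reaching 1 FPKM in 3 or more libraries, with Benjamini-Hochberg adjustment over all of them. On simulated data for this comparison, with 200 of 14229 genes changed, limma recovered 51% of the genes given a 2-fold change and 14% of the genes given a 1.5-fold change. Of its 69 calls 4 were false. The simulation drew every gene and library independently, without a shared lung level or exon length trend. Its share of false calls therefore may not hold for the real libraries. Depth covers counting error only.

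The members, gene lists, tests and alternatives were chosen with earlier results of these data known. Genes named with tests are all called members, the 8 most abundant, and in each symbol group the most abundant and the largest change, with the 2 most abundant untested members and all called partners. Some members are counted but not reported here by name. Other members were named after their values were seen. Seeds were matched as bases 2 to 8, or 2 to 7 followed by A, in the longest 3′ UTR of GENCODE coding transcripts, and the microRNA sequence came from RefSeq. The level of mature miR-9-3p was not analysed here. Alternatives were no filter or one of 5 FPKM, a pseudocount of 0.1, size factors by median of ratios, quantile normalization, no trend, a replicate block, leaving out each library, lung level, lung set, omission of the library with most lung RNA in each group, voom on recovered reads, and the exon length trend removed.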

Additional observations from a re-analysis of the deposited data

How the results depend on the processing

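Main values are 5 channel genes higher and 0 lower, 6 partner genes higher and 0 lower, and 554 and 341 genes in all. With 1 library left out the channel genes higher ranged from 0 to 3, the partner genes higher from 0 to 5, and all genes from 0 to 459 higher and 0 to 287 lower. With no filter, 1 channel gene (Kcnq3), 2 partner genes and 109 and 67 genes in all passed, and with the exon length trend removed 3, 0, 353 and 176. The lung level as a covariate gave 12 higher and 5 lower channel genes, 8 higher and 3 lower partner genes and 1811 and 2356 genes in all, and a batch term for the lung set 12 and 2, with 9 and 2 partner genes, and 1410 and 1243 in all. With the library of highest lung level dropped from each group 853 genes were lower, and Kcnf1 passed in place of Kcnc2, as with quantile normalization. In 8-base form 4 members had a seed match, not 12. The causes were not tested, except that fewer samples or more genes entered some fits. Deviations of same-numbered libraries from their group means correlated at -0.65, 0.11 and -0.54, none best with its own number. With 3 libraries a group and unequal lung levels, this cannot decide whether same-numbered libraries shared a culture or preparation. In the fit with the replicate block limma called 0 channel genes, 0 partner genes and 0 genes in all (11 channel genes and 2213 genes at an unadjusted p under 0.05). The channel median of 0.22 turned to -0.0098 with the lung level as a covariate and kept its sign elsewhere.

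Uncalled genes changed sign, all with a main 95% interval that holds 0. With the lung level as a covariate Kcna6 was at -0.15, Kcne1l at -0.22, Kcng1 at -0.16 (from 0.39), Kcnh3 at -0.22 (from 0.40) and Kcns1 at -0.026 (from 0.21). With the lung set Kcna6 was at -0.025 and Kcne1l at -0.081, and without the highest lung libraries Kcna6 was at -0.12. Kcna6 was at -0.0054 with voom, and Kcnh2 at 0.013 with quantile normalization and 0.024 with the length trend removed, where Kcnip3 was at 0.052. With 1 library left out the values ranged from -0.31 to 0.070 for Kcnab2, -0.20 to 0.17 for Kcnh2, -0.16 to 0.048 for Kcnip3, -0.11 to 0.10 for Kcna6, -0.083 to 0.14 for Kcne1l and -0.24 to 0.00055 for Kcnc1. No called channel gene changed sign in any alternative. The groups of these genes do not overlap, so the sign was fixed where only the libraries, filter, pseudocount or trend changed. Depth limits the untested genes: Kcng3 and Kcnv2 rest on at most 29 reads in a library.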
